A study of Mus musculus with 4 samples.

Results

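The genes described here encode the subunits of the mitochondrial respiratory chain and of ATP synthase, measured in kidney cells of chimeric mouse embryos. They were chosen by symbol alone, from names that begin with Nduf and a subunit letter and number, Sdh, Uqcr, Cyc1, Cycs, Cox4 to Cox8 or Atp5, and 87 of the 18194 genes on the arrays matched. Of these, 66 encode subunits of complexes I to IV or cytochrome c, 17 encode ATP synthase subunits, and 4 (Sdhaf1 to Sdhaf4) encode assembly factors of complex II and were counted apart. Embryonic stem cells marked with green fluorescent protein (GFP) and deleted for Tfrc, the gene of transferrin receptor 1, were injected at 3 to 5 per wildtype blastocyst, and cells were freed by collagenase and trypsin from chimeric kidneys of embryonic day 15.5. Sorting by GFP gave 2 arrays of GFP-positive cells labelled Tfrc-/- and 2 arrays of GFP-negative wildtype host cells, each made from 50 ng of total RNA after linear isothermal amplification. Both groups came from chimeric kidneys, and no array holds GFP-positive donor cells with Tfrc intact, so loss of Tfrc and descent from the donor line cannot be told apart.

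The respiratory chain passes electrons from NADH and succinate to oxygen and pumps protons across the inner mitochondrial membrane, and ATP synthase uses the returning protons to make ATP. Complexes I, II and III and cytochrome c carry iron in iron-sulphur clusters or haem, complex IV carries haem and copper, and ATP synthase carries no iron. The iron of complex IV and part of that of complex III sits in subunits encoded by mitochondrial DNA, and all subunits described below are encoded in the nucleus. Tubules of the mature kidney depend heavily on this pathway for ion transport.

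Transcripts of the iron-containing complexes and of iron-free ATP synthase stood at much the same distance between the groups. The median log2 difference, labelled Tfrc-null minus wildtype, was 0.20 over the 66 subunits of complexes I to IV and 0.21 over the 17 ATP synthase subunits, against 0.04 over all 18194 genes. The median of complexes I to IV less that of ATP synthase was thus -0.02. Within arrays, the mean log2 intensity of complexes I to IV less that of ATP synthase was -1.85 and -1.74 on the arrays labelled Tfrc-null and -1.81 and -1.75 on the wildtype arrays. These within-array contrasts overlapped between the groups. Only their change between arrays can be read, since probe sets of different genes differ in brightness for the same amount of RNA. The 11 subunits that bind iron themselves had a median of 0.25, and that value rested on single arrays: leaving out wildtype replicate 1 gave 0.01, leaving out wildtype replicate 2 gave 0.06, and leaving out replicate 1 of those labelled Tfrc-null gave 0.10.

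With limma, 0 of the 87 genes passed an adjusted p of 0.05, as did 0 of all genes (0.0%), and the smallest adjusted p among the 87 was 0.251. At an unadjusted p under 0.05, 2 of the 87 were higher (background 4.03%) and 1 was lower (background 3.98%). Without overlap of the groups, 30 of the 87 (34.5%) were higher on the arrays labelled Tfrc-null, where 20.6% of all genes were, and 4 (4.60%) were lower, where 14.3% of all genes were. With 2 arrays against 2, an exact two-sided permutation test cannot go below 0.333. The sample titles call the 2 arrays of each group biological replicates, but the animals behind each array are not stated. A limma p-value sets a difference against the spread between these samples, with variances drawn toward those of all genes. Whether that spread covers different animals is not known.

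The label itself was not borne out by the probe sets of the targeted gene. The brightest Tfrc probe set read 2509 and 3175 on the arrays labelled Tfrc-null and 1759 and 2348 on the wildtype arrays (log2 difference 0.47, SE 0.24, limma adjusted p = 0.744). Among its 6 probe sets, 4 others that exceeded the control level had log2 differences of 0.47 to 1.42, and the 1 at the 5′ end exceeded it on 0 arrays. The control level is the highest of 27 bacterial control probe sets on an array, between 7.18 and 9.08. The extent of the deletion is not known here, and probe sets outside it check nothing. The group is called labelled Tfrc-null for this reason, and every direction rests on the label.

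**Figure D1:**
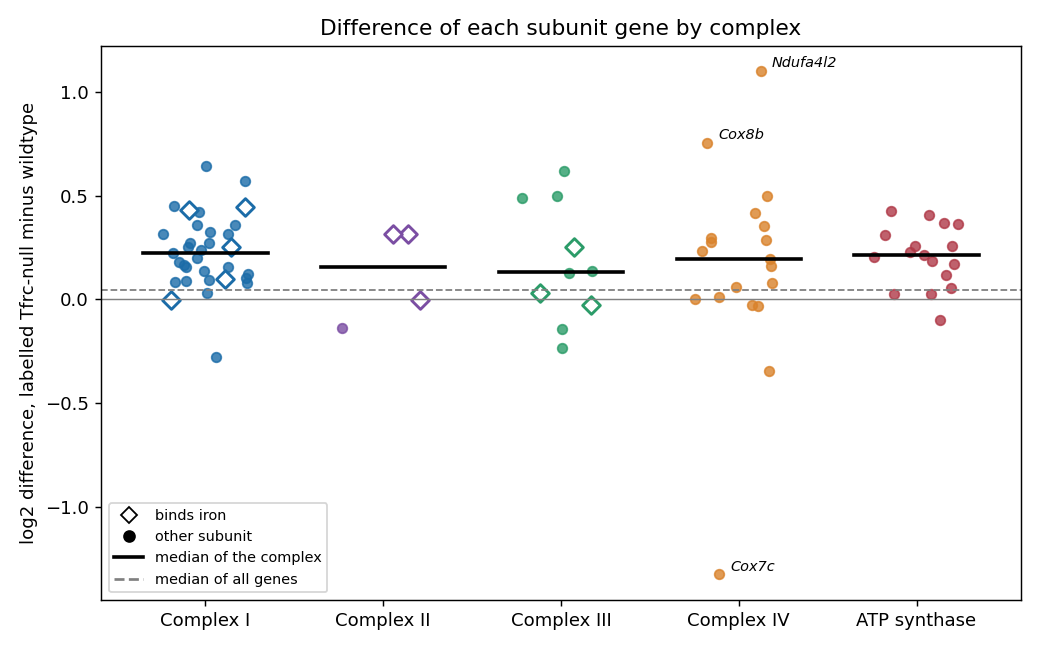
Log2 difference (labelled Tfrc-null minus wildtype) of each of the 83 subunit genes by complex. Diamonds mark subunits that bind iron, bars the median of each complex, and the dashed line the median of all genes. The medians of complexes I to IV lie between 0.13 and 0.22 beside 0.21 for ATP synthase, and Ndufa4l2, Cox8b and Cox7c lie furthest from the rest.

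Much of the shift came from 1 wildtype array. Wildtype replicate 1 was the lowest of the 4 arrays for 55 of the 83 subunits (66.3%), against 30.9% of all genes. The median log2 deviation of the 66 subunits of complexes I to IV from each gene's own mean was 0.07 and 0.13 on the arrays labelled Tfrc-null, and -0.26 and 0.04 on wildtype replicates 1 and 2. For ATP synthase it was 0.18 and 0.10 on the arrays labelled Tfrc-null, and -0.23 and 0.06 on the wildtype arrays. Both parts of the system were therefore low on the same array. Without wildtype replicate 1 the median difference was 0.05 for complexes I to IV and 0.12 for ATP synthase (all genes 0.04). Without wildtype replicate 2 it was 0.34 and 0.35 (all genes 0.04). Without wildtype replicate 1, 47.1% of the 87 genes were higher with no overlap, against 40.0% of all genes, and without wildtype replicate 2 the shares were 70.1% and 39.8%.

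**Figure D2:**
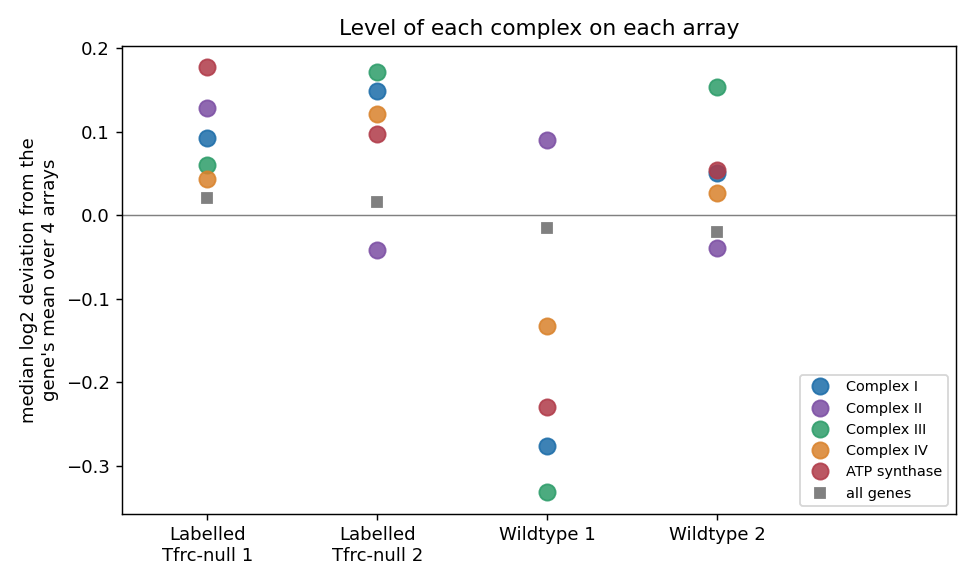
Median over the subunits of each complex of the log2 deviation from a gene's mean over the 4 arrays, by array, with all genes as grey squares. Complexes I, III and IV and ATP synthase lie between -0.33 and -0.13 on wildtype replicate 1 and above 0 on the other arrays. Complex II lies at 0.09 on wildtype replicate 1 and at -0.04 on replicate 2 of both groups.

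Hybridization controls split the arrays by replicate number, so differences were also taken within each number. Within number 1 the median was 0.31 for complexes I to IV and 0.36 for ATP synthase (all genes 0.04). Within number 2 it was 0.09 and 0.06 (all genes 0.05). In number 1, 71 of 83 subunits were higher on the array labelled Tfrc-null, and in number 2, 60 of 83 were, shares of 85.5% and 72.3% beside 54.7% and 57.1% of all genes. The ratio of 3′ to 5′ signal of beta-actin, a measure of how far RNA copies reach, was 5.89 and 7.21 on the arrays labelled Tfrc-null and 5.51 and 6.49 on the wildtype arrays. For Gapdh the ratio was 2.44 and 3.02 against 2.61 and 3.10 on the wildtype arrays, so the direction between the groups differed between these 2 controls. Their part in the result was not tested.

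**Figure D3:**
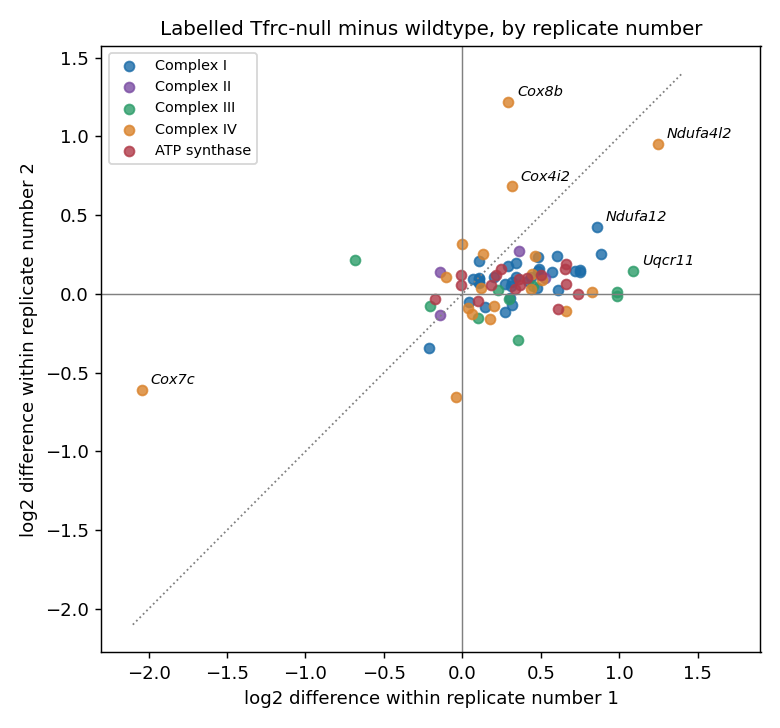
Log2 difference of each subunit gene within replicate number 1 (x) and within number 2 (y), both labelled Tfrc-null minus wildtype, with the line of equal values dotted. Most points lie right of 0 and close to 0 on the vertical axis, with medians for complexes I to IV of 0.31 within number 1 and 0.09 within number 2.

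Complex I, the NADH dehydrogenase and the largest complex of the chain, had 33 measured subunits, 31 with a higher mean on the arrays labelled Tfrc-null (93.9%, against 57.5% of all genes) and a median of 0.22. Groups did not overlap for 14 higher (42.4%, background 20.6%) and 1 lower (3.03%, background 14.3%). Its clusters that take up electrons from NADH sit in Ndufv1, Ndufv2 and Ndufs1, and those that pass them on to ubiquinone in Ndufs7 and Ndufs8 among others. Ndufv1 read 2459 and 2941 on the arrays labelled Tfrc-null and 1496 and 2663 on the wildtype arrays (log2 difference 0.43, SE 0.32, limma adjusted p = 0.873). Ndufs7 read 3278 and 4198 against 1952 and 3812 on the wildtype arrays, a log2 difference of 0.44 (SE 0.36). For both genes wildtype replicate 1 stood alone at the low end, and wildtype replicate 2 lay inside the range of the arrays labelled Tfrc-null. Ndufs8 read 1536 and 2137 against 1107 and 2085 on the wildtype arrays. Ndufv2, at 1715 and 1616 against 1595 and 1514 on the wildtype arrays, had a log2 difference of 0.10. Ndufs1, which encodes the large subunit with several clusters, read 610 and 461 on the arrays labelled Tfrc-null and 591 and 478 on the wildtype arrays, a log2 difference of -0.0027 with a 95% limma interval from -0.60 to 0.59. The iron-binding subunits of this complex thus ran from Ndufs1 up to 0.44 for Ndufs7.

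Among the subunits of complex I that hold no iron, Ndufa12, a late-joining accessory subunit, stood furthest apart. Its brightest probe set read 3035 and 3030 on the arrays labelled Tfrc-null and 1675 and 2254 on the wildtype arrays (log2 difference 0.64, SE 0.22, limma adjusted p = 0.538). The 2 other bright Ndufa12 probe sets differed by 0.09 and -0.19, so the difference was not shared within the gene. Ndufb8, a subunit of the membrane arm, read 2375 and 2697 against 1288 and 2261 on the wildtype arrays, a log2 difference of 0.57 (SE 0.31). Ndufb2, also of the membrane arm, had a log2 difference of 0.45. Ndufs5 was the 1 member of the complex that was lower with no overlap, at 338 and 320 on the arrays labelled Tfrc-null and 391 and 407 on the wildtype arrays (log2 difference -0.28). This value is uncertain, because a probe set that the annotation assigns to both Ndufs5 and a pseudogene copy of it, left out of the fit, differed by 0.24. The single-gene probe set of Ndufb4 was above the control level on 1 array, so no difference is given for it. It was still kept in the counts and medians. Bright probe sets that Ndufb4 shares with Ndufb4b and Ndufb4c, left out of the fit, differed by 0.35.

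Complex II, succinate dehydrogenase, joins the chain to the citric acid cycle and is encoded wholly in the nucleus. Its 4 subunits had a median of 0.16. Sdhb, which holds the iron-sulphur clusters of the complex, read 959 and 833 on the arrays labelled Tfrc-null and 666 and 776 on the wildtype arrays, without overlap (log2 difference 0.31, SE 0.20, limma adjusted p = 0.821). The haem-binding membrane anchors Sdhc and Sdhd had log2 differences of 0.32 and -0.0023, and the groups overlapped for both. Sdha, the flavin-bearing partner with no iron, read 1332 and 1210 against 1473 and 1326 on the wildtype arrays, a log2 difference of -0.14 (SE 0.19). The 4 assembly factors, which insert flavin or iron-sulphur clusters into complex II, had log2 differences of 0.15 (Sdhaf1), 0.21 (Sdhaf2), 0.19 (Sdhaf3) and 0.17 (Sdhaf4).

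Complex III and cytochrome c, which carry electrons on from ubiquinone, had 10 measured genes, 7 with a higher mean (70.0%, against 57.5% of all genes) and a median of 0.13. Of the 3 iron-binding members, Uqcrfs1, the Rieske iron-sulphur protein, had a log2 difference of 0.03, with 0.35 within replicate number 1 and -0.29 within number 2. Cycs, cytochrome c, had one of -0.03. Cyc1, cytochrome c1, read 1539 and 1667 on the arrays labelled Tfrc-null and 1126 and 1609 on the wildtype arrays (log2 difference 0.25, SE 0.24). The larger differences were those of small iron-free subunits. Uqcr11 read 755 and 1057 against 355 and 954 on the wildtype arrays, a log2 difference of 0.62 (SE 0.50, limma adjusted p = 0.889). Uqcr10 and Uqcrq had log2 differences of 0.50 and 0.49. For all 3 of them wildtype replicate 1 was the lowest array, and within replicate number 2 their differences were 0.15, 0.01 and -0.01. The core proteins Uqcrc1 and Uqcrc2 had log2 differences of -0.23 and 0.13, the hinge protein Uqcrh 0.13 and the ubiquinone-binding Uqcrb -0.14. The other Uqcrb probe set, also bright, differed by 0.16, so the direction was not shared within that gene.

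Complex IV, cytochrome c oxidase, holds no iron in its nuclear subunits. Its 19 measured genes, with Ndufa4 and Ndufa4l2 counted here, had a median of 0.20. Without overlap, 6 were higher (31.6%, background 20.6%) and 2 were lower (10.5%, background 14.3%). Among main isoforms, Cox6b1 read 4477 and 5092 on the arrays labelled Tfrc-null and 2530 and 5050 on the wildtype arrays (log2 difference 0.42, SE 0.36). Cox6c and Cox5b had log2 differences of 0.35 and 0.30, and Cox4i1, which encodes the subunit that takes part in control by ATP, 0.23. The other probe sets of Cox6b1 and Cox6c, also bright, differed by only 0.14 and 0.08. Further bright probe sets of Cox5b differed by 0.30 to 0.34, and a dimmer one by -0.27. Cox8a, the main isoform beside Cox8b and Cox8c, had 0.29. Cox6a1, Cox7a2, Cox5a and Ndufa4 lay between -0.03 and 0.08. Cox7c went the other way, at 97.6 and 103.6 on the arrays labelled Tfrc-null and 402.5 and 157.9 on the wildtype arrays (log2 difference -1.33, SE 0.45, limma adjusted p = 0.537). Its groups did not overlap, but the wildtype arrays were far apart, and the difference was -2.04 within replicate number 1 and -0.61 within number 2. The other Cox7c probe set was above the control level on 2 arrays.

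Several subunits of complex IV have alternative isoforms that replace the main one in certain tissues or under low oxygen. Ndufa4l2, a paralogue of Ndufa4 that is induced by low oxygen, stood furthest from 0 in the upward direction among the 87 genes. It read 285 and 299 on the arrays labelled Tfrc-null and 120 and 154 on the wildtype arrays, means of 292 ± 9.96 and 137 ± 24.1 (SD, n = 2 each). The groups were well apart, and the fold was 2.14 (log2 difference 1.10, SE 0.21, limma adjusted p = 0.251, 95% interval 0.57 to 1.63). The difference was 1.25 within replicate number 1 and 0.96 within number 2, so it did not rest on wildtype replicate 1 alone. Ndufa4 itself read 771 and 594 against 752 and 631 on the wildtype arrays, a log2 difference of -0.03.

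Cox4i2, the isoform of subunit IV made under low oxygen and in lung, read 57.3 and 105.3 on the arrays labelled Tfrc-null and 46.1 and 65.5 on the wildtype arrays (log2 difference 0.50, SE 0.36). The groups overlapped, although the array labelled Tfrc-null was higher within each number, by 0.31 and 0.68. Cox8b, an isoform of muscle and brown fat, read 10.6 and 27.6 against 8.67 and 11.9 on the wildtype arrays, so that its log2 difference of 0.76 came largely from 1 array. On that array, labelled Tfrc-null replicate 2, the summed level of 7 muscle marker genes was 329, against 114 on the other array labelled Tfrc-null and 147 and 179 on the wildtype arrays. The part of muscle cells in the Cox8b difference was not tested. The other muscle isoforms Cox6a2 and Cox7a1 had log2 differences of 0.16 and 0.06. The testis isoforms Cox6b2 and Cox8c had 0.28 and -0.35. Cox7b2 was above the control level on 0 arrays but was kept in the counts and medians.

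**Figure D4:**
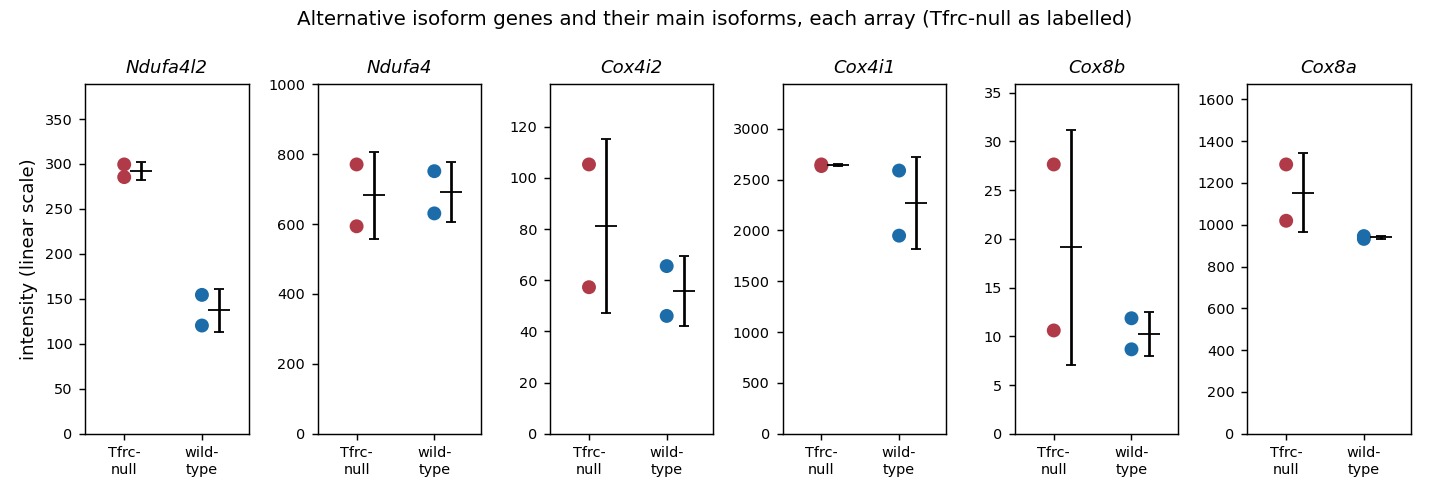
Intensity on each array (linear scale from 0, a scale of its own per gene) of 3 alternative isoform genes of complex IV, each followed by its main isoform, with mean ± SD beside the points (n = 2). Ndufa4l2 is the 1 pair where the groups stand well apart while the main isoform overlaps, at 285 and 299 against 120 and 154 for Ndufa4l2.

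ATP synthase makes ATP in its F1 head, driven by a rotating ring of c subunits in the membrane. Of its 17 genes, 16 had a higher mean on the arrays labelled Tfrc-null (94.1%, against 57.5% of all genes). Without overlap, 6 were higher (35.3%, background 20.6%) and 1 was lower (5.88%, background 14.3%). The head subunits ranged from -0.10 to 0.26: Atp5a1 at -0.10, the catalytic Atp5b at 0.03, and Atp5c1, Atp5d and Atp5e of the central stalk at 0.17, 0.26 and 0.23. Atp5a1 was the 1 gene that was lower without overlap, at 5016 and 5562 on the arrays labelled Tfrc-null and 5649 and 5683 on the wildtype arrays, and its 2 other probe sets differed by 0.11 and -0.03. The 3 genes of the ring, which encode the same mature c subunit, had log2 differences of 0.31 (Atp5g1), 0.36 (Atp5g2) and 0.03 (Atp5g3). The peripheral stalk genes Atp5pb, Atp5h, Atp5j and Atp5o lay between 0.05 and 0.20.

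The 3 highest differences of the enzyme were those of Atp5k, Atp5j2 and Atp5l, small membrane subunits, of which some help hold it in dimers. Atp5k, subunit e, read 3309 and 3152 on the arrays labelled Tfrc-null and 2090 and 2758 on the wildtype arrays, without overlap (log2 difference 0.43, SE 0.22, limma adjusted p = 0.738). Its 2 other probe sets differed by 0.33 and 0.41. Atp5j2 and Atp5l, subunits f and g, had log2 differences of 0.40 and 0.37, and the groups overlapped for Atp5l. Atp5mpl and Atp5md had 0.26 and 0.21.

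Further probe sets gave a second reading for part of the members. Of the 87 genes, 51 had more than 1 probe set, and 71 further probe sets of 46 genes lay above the control level on all 4 arrays. Of these, 60 had the sign of the probe set used and 11 the opposite one, with a median log2 difference of 0.14. For 37 of the 46 genes all such probe sets had the sign of the one used, and for 9 at least 1 did not. Probe sets of 1 gene read the same RNA, so this says nothing about the spread between samples.

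NRF1 and ETS factors are known regulators of nuclear genes for the respiratory chain, and their motifs were searched in promoter windows. The windows below are those of the genes that stood furthest apart in complex I, complex III and ATP synthase among the members in the promoter table. They are RefSeq sequences of GRCm38.p6, each 300 bases long, at chr10:94198785-94199084 on the plus strand for Ndufa12, chr10:80406772-80407071 on the minus strand for Uqcr11 and chr5:108434350-108434649 on the minus strand for Atp5k. Capitals mark matches on either strand to the NRF1 motif (GCGCA, any base, then GCGC) or the ETS motif (CCGGAAG), and the matches marked do not overlap.
Ndufa12: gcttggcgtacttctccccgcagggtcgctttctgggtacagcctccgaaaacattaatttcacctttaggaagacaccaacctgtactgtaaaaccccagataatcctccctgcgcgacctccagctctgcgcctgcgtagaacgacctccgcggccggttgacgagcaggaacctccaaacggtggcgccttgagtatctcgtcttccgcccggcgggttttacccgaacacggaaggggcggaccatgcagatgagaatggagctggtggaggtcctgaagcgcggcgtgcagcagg
Uqcr11: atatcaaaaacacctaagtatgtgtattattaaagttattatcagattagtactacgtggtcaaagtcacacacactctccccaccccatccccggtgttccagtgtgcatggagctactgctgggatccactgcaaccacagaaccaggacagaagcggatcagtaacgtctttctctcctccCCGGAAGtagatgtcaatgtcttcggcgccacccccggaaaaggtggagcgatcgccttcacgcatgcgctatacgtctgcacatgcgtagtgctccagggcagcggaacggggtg
Atp5k: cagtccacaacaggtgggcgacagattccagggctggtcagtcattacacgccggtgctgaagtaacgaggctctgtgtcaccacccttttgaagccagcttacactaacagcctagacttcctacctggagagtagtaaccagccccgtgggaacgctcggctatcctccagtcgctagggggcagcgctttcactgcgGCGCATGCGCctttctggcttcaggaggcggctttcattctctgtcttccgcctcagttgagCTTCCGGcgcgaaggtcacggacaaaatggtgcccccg
The Atp5k window holds 1 match to each motif, that of Uqcr11 holds 1 ETS match, and that of Ndufa12 holds 0 of either. The NRF1 letters stood in 16 of 72 windows of 67 subunit genes (22.2%), against 4.60% of all 32851 promoter windows of that length. The ETS letters stood in 17 of 72 (23.6%), against 8.86% of all windows. By part, NRF1 letters stood in 18.5% of windows of complexes I to IV and in 33.3% of those of ATP synthase, which are 10 of 54 and 6 of 18 windows. The low-oxygen response core ACGTG, on either strand, stood in 20 of 72 windows (27.8%), against 19.6% of all windows. No window of Ndufa4l2 or Cox4i2 was available, so their promoters were not searched. A match describes the letters and does not show that a factor binds there.

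Genes of mitochondrial respiration were also counted from fixed lists. That of assembly factors includes Sdhaf1 to Sdhaf4, which were described above with complex II. Of 49 assembly factors of the complexes, 47 were measured, and 0 passed limma's adjusted threshold. A higher mean on the arrays labelled Tfrc-null was found for 39 (83.0%, against 57.5% of all genes). Their median was 0.20, and it was 0.36 within replicate number 1 and 0.11 within number 2. The 4 with the smallest p were Cmc2, Ndufaf3, Cox18 and Ndufaf8, with log2 differences of 0.63, 0.57, 0.52 and 0.61. Cox18, which inserts a complex IV subunit into the membrane, read 165 and 183 on the arrays labelled Tfrc-null and 124 and 118 on the wildtype arrays, and its difference was similar within both numbers, at 0.41 and 0.63. The citric acid cycle and pyruvate dehydrogenase list had a median of 0.03 (12 of 17 or 70.6% higher, 0 passed). Its genes Pdhx, Fh1, Pdhb and Idh3g stood at 0.26, 0.23, -0.26 and 0.25. Regulators of mitochondrial biogenesis had a median of 0.06 (8 of 14 higher, 0 passed), and this share of 57.1% was near that of all genes. Among them the coactivator genes Ppargc1a and Ppargc1b had log2 differences of -0.52 and -0.49, while Gabpb1 and Tfb1m had 0.36 and 0.29. The 1 mitochondrially encoded subunit with a single-gene probe set, ND5 of complex I, read 2525 and 3816 against 3415 and 4083 on the wildtype arrays (log2 difference -0.27).

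Other groups of genes gave a measure of the background. The 76 mitochondrial ribosomal proteins had a median of 0.25, with 0.32 within replicate number 1 and 0.16 within number 2. The 46 cytosolic ribosomal proteins had a median of 0.02 and the 3300 other genes with a mean intensity of at least 500 one of 0.02. On the mitochondrial ribosomal list, wildtype replicate 1 was lowest for 44.7% of genes and wildtype replicate 2 for 42.1%. These 3 lists were chosen after values were seen. The difference between them and the subunits was not tested.

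The sorted populations also differed in markers of kidney cell types, and in bulk samples fewer cells of a type and less RNA per cell cannot be told apart. Cap mesenchyme and podocyte markers, which define the embryonic kidney, were above the control level on all 4 arrays for 6 of 6 and 4 of 4 measured, and 5 and 2 of them had lower means. Of all 18194 genes, 10469 had higher means and 7722 lower ones. Ureteric bud markers had lower means in 9 of 9 measured, with a summed intensity of 2200 and 2590 on the arrays labelled Tfrc-null and 5912 and 6102 on the wildtype arrays. Endothelial markers had lower means in 8 of 8, with sums of 3134 and 2686 against 5356 and 4732 on the wildtype arrays. Stromal markers had higher means in 8 of 8, with sums of 15613 and 13625 against 12131 and 8661 on the wildtype arrays. The erythroid list holds Tfrc, the targeted gene and its 1 member with a higher mean, which was taken out after values were seen. The other 7 measured erythroid markers had lower means, with sums of 82.2 and 102.9 against 1318 and 3900 on the wildtype arrays, and Epb42 and Hba-a1 were above the control level on 0 arrays. Proximal tubule markers, of the segment richest in mitochondria in the mature kidney, had lower means in 7 of 8, with sums of 2338 and 2181 against 2291 and 2866 on the wildtype arrays. Distal segment markers had lower means in 6 of 6, with sums of 1244 and 1020 against 1922 and 2011 on the wildtype arrays. Leukocyte and adrenal cortex markers were mixed, with higher means in 4 of 7 and 4 of 6, and muscle markers had higher means in 6 of 7. The part of these cell types in the shift was not tested. For vascular mural cells, where Ndufa4l2 and Cox4i2 are also made, 10 markers were chosen after values were seen. They summed to 5076 and 4738 on the arrays labelled Tfrc-null and 5883 and 4944 on the wildtype arrays. The markers disagreed, with 6 higher and 4 lower means, log2 differences from -1.36 to 0.58 and a median of 0.03. The part of mural cells in the differences of Ndufa4l2 and Cox4i2 was not tested.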

How the data were processed

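Kidney cells sorted by GFP were profiled on 4 Mouse Genome 430 2.0 arrays, 2 per group. The deposited values are linear probe set intensities, and the authors used RMA per the submitters' processing notes, which equalises the distributions of arrays and so removes shifts shared by most genes. RMA's version and settings are not given in the sources used here. Depth does not apply to arrays, and the number of arrays limits the precision.

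Intensities were taken to log2. Of 45101 probe sets, 34958 had 1 symbol in the platform annotation, 932 several and 9211 none, and only those with 1 were used. Among those with several were 9 that hold a matching symbol, and subunits read only by these, or by no probe set used, are not analysed here. Each gene was read by its brightest probe set on average. Testing used limma 3.58.1 (R 4.3.3) over 18194 genes (no filter, no block), with Benjamini-Hochberg adjustment, and p-values of single genes refer to this fit. On simulated data with 200 changed genes, the fit called 0.4%, 61.2% and 86.8% of genes moved by 1, 2 and 3 on the log2 scale. The simulated noise was independent between arrays, while same-numbered arrays here deviated together, so these shares need not hold for the real data. Iron-binding subunits were named from textbook knowledge. The members and lists were chosen with earlier results of these data known.

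Named are every iron-binding and ATP synthase gene, the alternative isoforms with their main isoforms, the 5 largest differences in complexes I, III and IV, members past an unadjusted p of 0.05, and the 4 smallest p per pathway list. Other members named, which are Uqcrc2, Uqcrh, Uqcrb, Ndufs5, Ndufb4, Cox6c, Cox5b and Cox5a, and the mural marker list were chosen after their values were seen. Same-numbered arrays deviated together from their group means (r = 0.51 over genes), but the labels do not say that a number pairs arrays.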

Additional observations from a re-analysis of the deposited data

How the results depend on the processing

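No member passed limma's adjusted threshold of 0.05 in any setting run, where the smallest adjusted p of a member was 0.132 (Ndufa4l2, replicate block). Genes called over the whole table were 2 with the replicate block, 2 with a trended variance and 1 with probe sets averaged per gene, against 0. Over all genes, those at an unadjusted limma p under 0.05 in either direction numbered 1459 in the main fit and 2691 with the block. They numbered 1312 with the trend and 1509 with probe sets averaged. Counts of members at this threshold therefore need not show a change of the members alone. Members at an unadjusted p under 0.05 were 4 higher with the block or the trend, and 1 higher and 0 lower with probe sets averaged. When 1 array was left out, these members were 1 to 16 higher (16 without wildtype replicate 2) and 0 to 2 lower. Members without overlap of the groups were then 41 to 61 higher and 7 to 13 lower, and all genes 6617 to 7284 higher and 4880 to 5755 lower, since 1 value against 2 separates more often. The block changed no other call, and no crossed numbering was tried.

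The median of complexes I to IV less that of ATP synthase ranged from -0.095 (without labelled Tfrc-null replicate 2) to 0.049 (without labelled Tfrc-null replicate 1) over arrays left out, and was 0.039 with probe sets averaged. With 1 array left out, the median ranged from 0.053 to 0.34 for complexes I to IV, 0.12 to 0.35 for ATP synthase, 0.081 to 0.39 for complex I, -0.024 to 0.17 for complex II, -0.045 to 0.40 for complex III, 0.065 to 0.24 for complex IV and 0.014 to 0.20 for the iron-binding subunits. The wildtype arrays set both ends for complexes I to III taken singly, for complexes I to IV together and for ATP synthase, except the upper end for complex II. The cause was not tested.

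Of 54 named members, 27 changed sign when some array was left out, 19 of them without wildtype replicate 1, with these lowest and highest log2 differences: Atp5b (-0.20 to 0.25), Atp5c1 (-0.024 to 0.36), Atp5d (-0.0025 to 0.52), Atp5g3 (-0.064 to 0.12), Atp5h (-0.010 to 0.25), Atp5j (-0.21 to 0.32), Atp5l (-0.079 to 0.81), Atp5md (-0.020 to 0.44), Atp5pb (-0.026 to 0.44), Cox6a1 (-0.12 to 0.14), Cox6a2 (-0.054 to 0.37), Cox6b1 (-0.081 to 0.92), Cox6b2 (-0.40 to 0.95), Cox7a1 (-0.035 to 0.16), Cox7a2 (-0.0021 to 0.16), Cyc1 (-0.0066 to 0.51), Cycs (-0.095 to 0.041), Ndufa4 (-0.21 to 0.16), Ndufs1 (-0.20 to 0.20), Ndufs7 (-0.039 to 0.93), Ndufs8 (-0.20 to 0.71), Sdhaf4 (-0.053 to 0.39), Sdhc (-0.057 to 0.69), Sdhd (-0.11 to 0.10), Uqcr11 (-0.095 to 1.33), Uqcrc1 (-0.69 to 0.23), Uqcrfs1 (-0.26 to 0.32). When all probe sets were averaged Cox6a2 stood at -0.019 and Cox8c at 0.091, and with quantile normalization Cox6a1 stood at -0.0079.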
